A study of Mus musculus with 24 samples.

Results

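The genes described here encode the subunits of the AMPA and NMDA receptors, the ion channels that carry most fast excitatory transmission in the brain. They are Gria1, Gria2, Gria3 and Gria4 for the AMPA receptor and Grin1, Grin2a, Grin2b, Grin2c, Grin2d and Grin3a for the NMDA receptor. They were listed by name as members of these receptor families, with earlier results of these data known. All 10 have a row in both count tables, which hold 23845 rows for RNA and 20436 for ribosome-protected fragments, and all 10 passed the filter on low counts in both assays.

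RNA and ribosome-protected fragments (RPFs, also called footprints) had been sequenced from acute hippocampal slices of wild-type (WT) and Tsc2+/- male littermates aged 28 to 42 days. Slices had received vehicle, which was artificial cerebrospinal fluid, or 100 µM DHPG, an agonist of the group 1 metabotropic glutamate receptors, for 5 min, and all of them had then been chilled in cycloheximide, which arrests ribosomes. Each assay had 4 groups of 3 libraries (WT vehicle, WT DHPG, Tsc2+/- vehicle and Tsc2+/- DHPG), 24 libraries in all. The study asked how loss of a Tsc2 copy and a stimulus that induces long-term depression alter mRNA and its translation.

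The model has limits that bear on these genes. The Tsc2 deletion was germline, made with a CMV-driven Cre and a floxed Tsc2 allele, so every cell type of the slice carried it. Each library came from slices pooled over several mice. CA3 had been cut away and the tissue is called CA1 enriched by the study, yet it was not a purified cell type. Summed RNA levels in WT vehicle were 1639 to 1708 CPM (counts scaled to the size of the library) for 5 markers of CA1 pyramidal cells. They were 607 to 665 for CA3 markers, of which 4 of 5 passed the filter, and 37.3 to 59.0 for 5 dentate granule markers. Sums were 878 to 941 for 7 interneuron markers and 1727 to 1983 for 5 astrocyte markers. They were 167 to 217 for 5 microglia markers and 4586 to 5407 for 5 oligodendrocyte markers. The oligodendrocyte sum was 5042 to 5892 in Tsc2+/- vehicle. Of these 5 genes, 0 were called in any comparison (edgeR), where at most 0.227% of all genes were called. An unadjusted p under 0.05 was found for 3 in RNA between genotypes in vehicle, beside 4.9% of all genes. It was found for 4 in RPFs under DHPG in Tsc2+/-, beside 4.03% of all genes. The part of these markers in the results for the subunits was not tested. Fewer cells of a type and less RNA per cell cannot be told apart in such libraries. RNA libraries held 14801679 to 24067838 counts and RPF libraries 5296006 to 13613673. Nearly all RPF counts above 0 (97.9% to 98.5%) were even numbers in replicates 2 and 3, against 48.2% to 49.0% in replicate 1, and these libraries were therefore also tested with halved counts.

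AMPA receptors are tetramers of the GluA subunits. GluA2, the product of Gria2, keeps calcium out of the channel once its mRNA has been edited, and GluA1, the product of Gria1, is the subunit best known for activity-dependent trafficking. NMDA receptors always contain GluN1, the product of Grin1, together with GluN2 subunits that set the kinetics of the channel or the less common GluN3 subunits. In forebrain, Grin2b is used early and Grin2a joins it after birth. Long-term depression induced through group 1 metabotropic receptors removes AMPA receptors from the synapse and depends on new protein, which makes the translation of these mRNAs of interest. A ribosome that scans from the cap meets the leader (the 5′ untranslated region) first. A start codon placed there can divert it into a short upstream reading frame.

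Most of the subunit mRNAs had long leaders, many of which held start codons upstream of the receptor's own. Leader lengths were 416 nt in Gria1, 309 in Gria2, 475 in Gria3, 479 in Gria4, 301 in Grin1, 1200 in Grin2a, 797 in Grin2b, 773 in Grin2c, 114 in Grin2d and 688 in Grin3a, in the RefSeq transcript with the longest coding sequence (GRCm38.p6). For Gria3, the other curated transcripts have a coding sequence of the same length and a leader of 167 nt. The median of all 12168 genes with known lengths that were tested in both assays was 174 nt. The Grin2a leader exceeded 99.2% of them, and the Grin2d leader was shorter than the median. At least 1 upstream ATG was present in 7 of the 10 leaders, against 49.7% of all these genes. Grin2b had 9, Grin2a had 7, Grin3a had 4, Gria1 and Gria4 had 3 each, Gria2 had 2 and Gria3 had 1. Grin1, Grin2c and Grin2d had 0. Leaders were among the reasons for which these genes were of interest, so their length is a description.

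Most upstream frames ended inside the leader. The frames that ran past the receptor's start codon are shown here, because a ribosome that enters such a frame passes that codon in another reading frame. ATG is in capitals, with 12 bases before it and 5 after it, and each name gives the position of the first base of the upstream ATG in nt, counted back from the receptor's start codon.
Gria2 upstream start at -20: gatattttgtggATGctcta
Gria1 upstream start at -43: aagaccaaatctATGgttgg
Grin2b upstream start at -70: gatattcccaacATGcgctc
Grin2a upstream start at -71: gaggcggccgagATGctcgt
Grin2a upstream start at -227: ctgctgagaactATGtggag
Grin3a upstream start at -166: ctgcaacttggaATGcccag
The frames that these starts open are 24 codons long in Gria2, 56 in Gria1, 80 in Grin2b, 57 and 109 in Grin2a and 134 in Grin3a. The upstream starts shown for Grin2b, Grin2a and Grin3a have a purine 3 bases before the ATG, a base that favours initiation. Those shown for Gria2 and Gria1 have a T. Of the starts shown, only that of Gria1 has a G directly after the ATG. In Gria1 the last upstream ATG lies at -14 and is followed directly by a stop codon. Another curated Gria1 transcript, with a leader of 250 nt, has 0 upstream frames that run past the start codon.

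**Figure D1:**
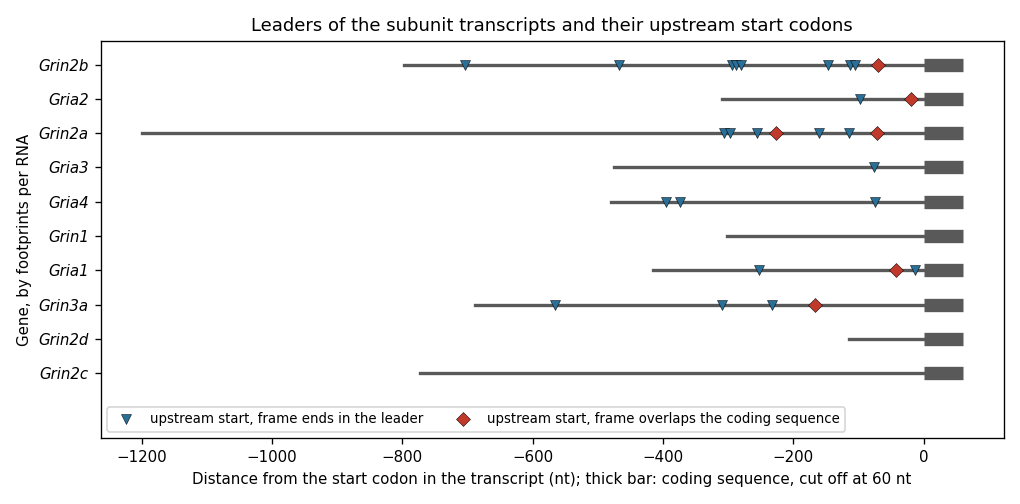
Leaders of the 10 subunit transcripts, drawn to scale in nt from the receptor's start codon at 0, in order of footprints per RNA in WT vehicle. Triangles mark upstream start codons whose frame ends in the leader and diamonds those whose frame overlaps the coding sequence. Grin2b and Grin2a carry 9 and 7 upstream starts, while Grin1, Grin2d and Grin2c carry 0.

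The receptor's own start codons, printed next for the genes at either end of the order by footprints per RNA and for Grin1, differed in their surroundings. A strong context has a purine 3 bases before the ATG and a G directly after it, an adequate context has 1 of these and a weak context has 0.
Grin2b: gacgagctgaagATGaagcc
Gria2: cttttcttggaaATGcaaaa
Grin2a: taagtggcgaccATGggcag
Grin1: tgcccgaggctcATGagcac
Grin2c: cctccagtggacATGggtgg
The context was strong in 3 of the 10 genes (Gria3, Grin2a and Grin2c), adequate in 6 and weak in 1, the obligatory subunit Grin1. Over all 12168 genes it was strong in 45.5%, adequate in 48.0% and weak in 6.51%. The gene with the lowest footprints per RNA, Grin2c, thus had a strong context and 0 upstream starts, and the highest, Grin2b, had an adequate context and 9.

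To compare genes with each other, levels were divided by length: RNA CPM by kb of transcript and RPF CPM by kb of coding sequence without its first and last 30 nt, the stretch over which each had been counted. Gria1 and Grin1 dominated the RNA. In WT vehicle, the RNA of Gria1 (chromosome 11, 57011571 to 57330244) was 251, 233 and 237 CPM per kb in the 3 libraries, and that of Grin1 (chromosome 2, 25291177 to 25319187) was 194, 200 and 197. The RNA of Gria2 (chromosome 3, 80681450 to 80804227) was 55.3, 48.8 and 45.4 and that of Gria3 (chromosome X, 41400819 to 41678601) was 39.5, 33.3 and 33.1. Gria1 and Grin1 lay above 98.8% and 98.3% of all genes, and every one of the 12 RNA libraries ranked Gria1, Grin1, Gria2 and Gria3 in that order.

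The other subunits had less RNA. Means in WT vehicle were 17.9 CPM per kb ± 3.02 (SD, n = 3) for Grin3a (chromosome 4, 49661611 to 49846023), 16.3 ± 1.89 for Grin2c (chromosome 11, 115249169 to 115267297), 10.99 ± 0.902 for Gria4 (chromosome 9, 4417893 to 4796234), 10.9 ± 0.946 for Grin2a (chromosome 16, 9567901 to 9996083), 5.91 ± 0.133 for Grin2b (chromosome 6, 135713221 to 136173615) and 3.68 ± 0.575 for Grin2d (chromosome 7, 45831883 to 45871194). Gria4 and Grin2a were not separated, since Gria4 was higher in 6 of 12 libraries. Grin3a was above Grin2c in 10 of 12. Each other neighbour in this order was higher than the next in 12 of 12 libraries.

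The footprints gave another order. Gria2 led with 529, 604 and 625 CPM per kb in the 3 WT vehicle libraries, followed by Gria1 with 515, 496 and 559 and Grin1 with 436, 426 and 490. Gria2 was above Gria1, and Gria1 above Grin1, in 12 of 12 libraries. Gria3 followed at 171 ± 15.4 (SD, n = 3), Grin2b at 99.7 ± 2.57, Grin2a at 80.2 ± 3.88, Gria4 at 34.6 ± 2.72 and Grin3a at 22.4 ± 2.07. Grin2c and Grin2d had the fewest footprints, with 3.29 ± 1.07 and 3.29 ± 0.983, and could not be ordered, Grin2c being higher in 7 of 12 libraries. These 2 genes rested on 46 to 184 and 54 to 192 RPF counts per library, against 7446 to 18442 for Gria1. Grin3b, the remaining NMDA receptor gene, had 0 to 6 RNA counts and 0 to 2 RPF counts per library and was not tested.

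**Figure D2:**
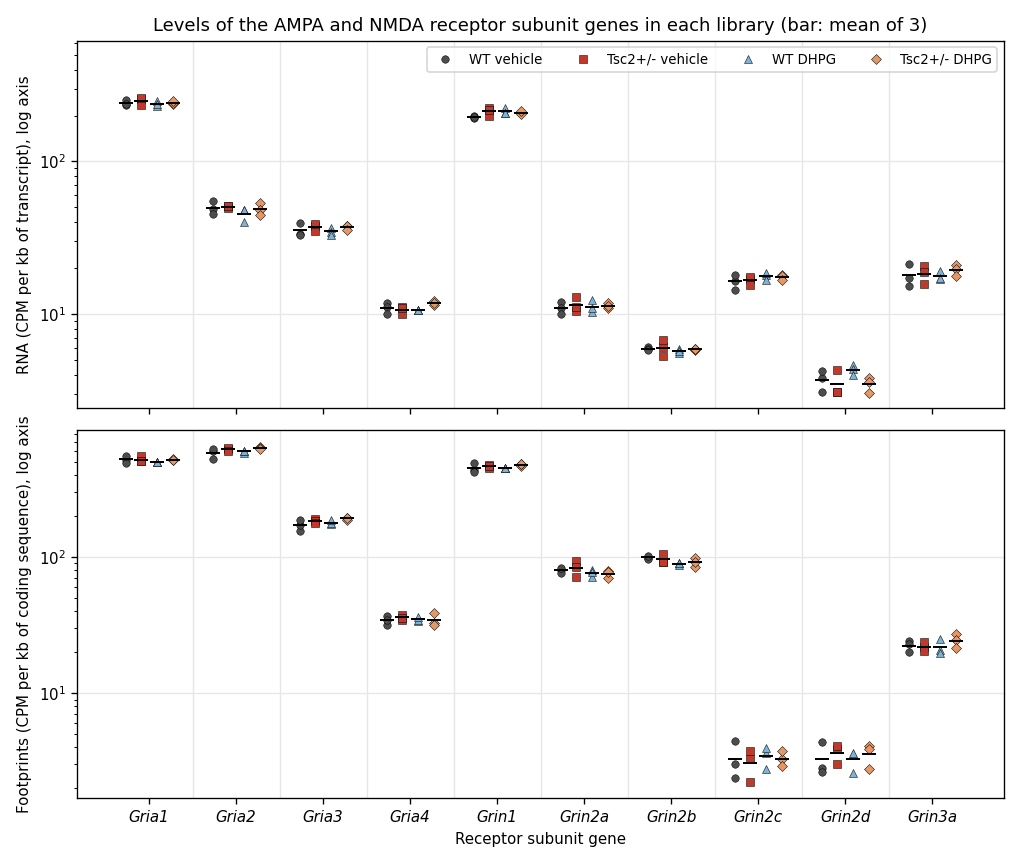
RNA (upper panel, CPM per kb of transcript) and footprints (lower panel, CPM per kb of coding sequence) of each subunit gene, on log axes. Each point is a library and each bar the mean of 3. Gria1 and Grin1 lead the RNA and Gria2 leads the footprints. The 4 groups of a gene lie close together compared with the distances between genes.

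Footprints per RNA, the ratio of both levels in libraries with the same group and replicate number, ranged over nearly 2 orders of magnitude among the subunits. The study split each lysate between both assays. Libraries of the same group and number were taken as a lysate, which the labels do not state. Grin2b had the highest ratio, at 16.3, 16.6 and 17.7 in WT vehicle, and Grin2c the lowest, at 0.271, 0.166 and 0.166. Gria2 had 9.58, 12.4 and 13.8 and Grin2a 6.74, 7.01 and 8.37. The median of all genes was 2.27, and 80% of them lay between 0.792 and 5.93. These limits were taken from WT vehicle. Grin2b, Gria2 and Grin2a were above the higher one in every one of the 12 lysates, and Grin2c was below the lower limit in all 12.

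In between were Gria3 at 4.92 ± 0.877 (SD, n = 3), Gria4 at 3.17 ± 0.416, Grin1 at 2.29 ± 0.183, Gria1 at 2.18 ± 0.163, Grin3a at 1.28 ± 0.207 and Grin2d at 0.8996 ± 0.253. Grin1 exceeded Gria1 in 11 of 12 lysates and Grin3a exceeded Grin2d in 10 of 12, while every other neighbour was ordered alike in all 12. Among all genes, Grin2b stood at percentile 99.2, Gria2 at 98.0, Grin2a at 93.7, Gria3 at 83.9, Grin1 at 51.1, Gria1 at 48.5, Grin2d at 13.98 and Grin2c at 0.597 (means over the 3 WT vehicle lysates). Over all 12 lysates the percentile ran from 98.3 to 99.4 for Grin2b, from 97.3 to 98.8 for Gria2, from 89.0 to 96.0 for Grin2a and from 0.321 to 1.13 for Grin2c.

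Transcript length enters this ratio. Annotated transcripts measured 24123 nt for Grin2b, 15521 for Grin2a and 9943 for Gria2, of which 18877, 9926 and 6928 nt are 3′ untranslated region, and these 3 genes had the highest ratios. Grin2c and Grin2d had 402 and 297 nt of 3′ untranslated region. The RNA had been selected by poly(A) and counted over whole transcripts. How evenly reads covered such transcripts was not tested. With CPM alone, without any length, the ratio of footprints to RNA in WT vehicle was 3.17 for Gria2 (percentile 93.4 of all genes), 3.07 for Grin2b (93.4), 2.06 for Grin2a (82.0), 1.48 for Grin1 (67.7), 1.01 for Gria1 (48.2), 0.803 for Grin2d (37.2) and 0.151 for Grin2c (2.17). Gria2 and Grin2b had high places and Grin2c a low place on either scale. Without length, Grin2d, Grin1 and Grin2a moved by more places than the other subunits, from percentile 13.98 to 37.2, from 51.1 to 67.7 and from 93.7 to 82.0.

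**Figure D3:**
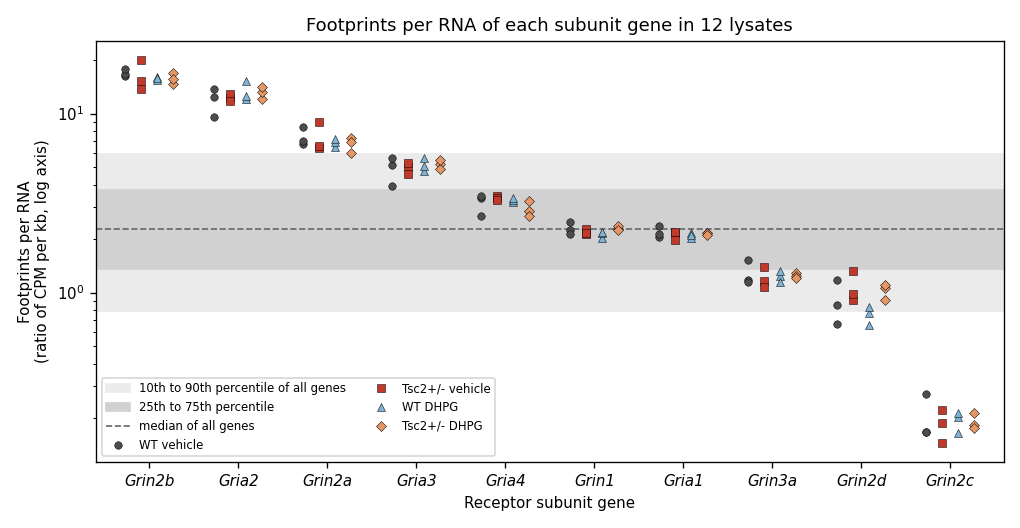
Footprints per RNA (ratio of CPM per kb, log axis) of each subunit gene in 12 lysates, ordered by the mean in WT vehicle. Shading gives the spread over all genes in WT vehicle and the dashed line their median of 2.27. Grin2b, Gria2 and Grin2a lie above the shaded range and Grin2c below it in every lysate.

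Among all genes, those with more upstream starts had lower footprints per RNA, while Grin2b and Grin2a, the subunits with the most, had high ones. The median was 2.60 in 6124 genes with 0 upstream starts, 2.096 in 2584 genes with 1, 1.94 in 2021 genes with 2 or 3 and 1.86 in 1439 genes with 4 or more. Grin2b and Grin2a, with 9 and 7 upstream starts, had 16.9 and 7.37, above the upper quartile of 3.18 in that last class. Grin3a, with 4, had 1.28, below the median of 1.86 in the same class, and stood at percentile 24.2 of all genes. Of the 3 subunits with 0 upstream starts, Grin1 lay near the median of all genes and Grin2d and Grin2c lay below 1.57, the lower quartile of that class. Spearman's rho between upstream starts and footprints per RNA was 0.58 over the 10 subunit genes and -0.16 over all genes, where genes share the same libraries and transcript lengths. With the length of the 3′ untranslated region, which enters the RNA level, rho was 0.78 over the 10 genes and 0.09 over all genes. In the same order, it was 0.68 and -0.16 with transcript length and 0.27 and -0.07 with leader length. With coding length it was -0.07 and -0.37, and with the GC content of the leader -0.67 and -0.25.

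The makeup of each receptor family therefore differed between RNA and footprints. Gria1 gave 71.5% ± 1.29 (SD, n = 3) of AMPA receptor RNA per kb in WT vehicle but 39.8% ± 1.95 of the footprints, and Gria2 gave 14.8% ± 0.755 of the RNA but 44.5% ± 1.60 of the footprints. Gria3 had 10.5% ± 0.501 and 13.0% ± 0.326, and Gria4 3.26% ± 0.156 and 2.63% ± 0.197. The ratio of Gria2 to Gria1 was 0.207 ± 0.0142 in RNA and 1.12 ± 0.0951 in footprints. On CPM without lengths it was 0.359 ± 0.0246 and 1.11 ± 0.0944, so Gria2 was the smaller in RNA and the larger in footprints on both scales.

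Among the GluN2 genes, Grin2c gave the largest share of the RNA per kb, 44.2% ± 1.87, and 1.77% ± 0.569 of the footprints. Its lead in RNA depended on length, since on CPM without lengths Grin2a RNA was at 169.9 ± 14.7, Grin2b at 142.7 ± 3.20, Grin2c at 79.9 ± 9.25 and Grin2d at 16.1 ± 2.52. Per kb, Grin2b gave 16.1% ± 1.23 of the RNA and 53.5% ± 0.9002 of the footprints, and Grin2a 29.7% ± 1.71 and 43.0% ± 0.747. The ratio of Grin2a to Grin2b was 1.85 ± 0.119 in RNA and 0.804 ± 0.0206 in footprints (1.19 ± 0.0766 and 0.794 ± 0.0204 on CPM without lengths), so that Grin2a led in RNA and Grin2b in footprints. Grin1 exceeded the summed GluN2 genes by 5.36 times in RNA and 2.41 times in footprints, and the summed AMPA genes exceeded the summed NMDA genes by 1.34 and 1.995 times. These ratios also depended on length: on CPM they were 2.11 and 1.57 for Grin1 to GluN2 and 1.51 and 1.62 for AMPA to NMDA.

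**Figure D4:**
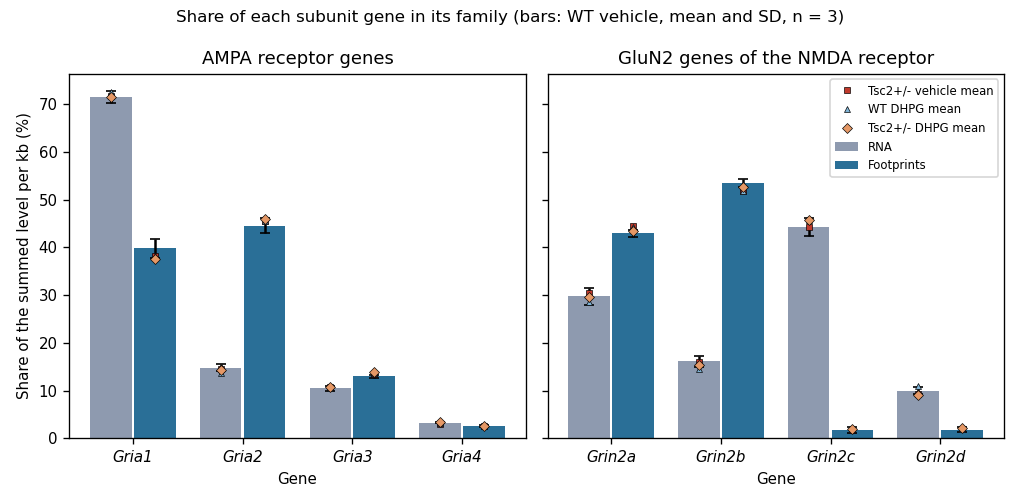
Share of each gene in the summed level per kb of its family, in percent, for RNA and footprints. Bars are WT vehicle (mean and SD, n = 3) and small symbols the means of the other 3 groups. Gria1 gives 71.5% of AMPA RNA and 39.8% of footprints, and Grin2c 44.2% of GluN2 RNA and 1.77% of footprints.

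These shares were close to each other in all groups. In Tsc2+/- DHPG, Gria1 gave 71.4% ± 1.47 of AMPA RNA and 37.6% ± 0.472 of the footprints, Gria2 gave 46.0% ± 0.390 of the footprints, and Grin2b gave 52.6% ± 0.520 of GluN2 footprints. The ratio of Gria2 to Gria1 in footprints was 1.03 to 1.22 in the 3 WT vehicle libraries, 1.13 to 1.252 in Tsc2+/- vehicle, 1.16 to 1.21 in WT DHPG and 1.203 to 1.246 in Tsc2+/- DHPG, so that all 4 groups overlapped. The ratio of summed AMPA to summed NMDA RNA was 1.26 to 1.43 in WT vehicle and 1.21 to 1.23 in WT DHPG, which did not overlap (the difference was not tested), and 1.28 to 1.31 and 1.26 to 1.29 in the corresponding Tsc2+/- groups, which did. In footprints this ratio overlapped between all 4 groups (1.91 to 2.13).

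Whether loss of a Tsc2 copy changed the subunits was asked by comparing Tsc2+/- with WT. Tsc2 itself had a log2 fold change of -0.52 in RNA and -0.74 in RPFs in vehicle, and both were called. None of the 10 subunit genes was called in this comparison in RNA, RPFs or TE, the translational efficiency tested as the RPF change minus the RNA change (edgeR quasi-likelihood test with Benjamini-Hochberg adjustment over all genes, adjusted p under 0.1). Over all genes, 0.0896% were called in RNA, 0.0233% in RPFs and 0% in TE. DESeq2 also called 0 of 10 in each. At an unadjusted p under 0.05 the counts were 1 of 10 in RNA, 0 of 10 in RPFs and 0 of 10 in TE, where 4.9%, 6.55% and 5.76% of all genes passed.

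The estimates were small and, for the abundant subunits, narrow. In vehicle, the log2 fold changes of the 10 genes ran from -0.09 to 0.11 in RNA and from -0.09 to 0.16 in RPFs. Gria1 was at 0.05 in RNA (SE 0.0459) and 0.00 in RPFs (SE 0.0472), with 95% intervals from -2.68% to 10.7% and from -6.63% to 6.69%. Gria2 was at 0.03 (SE 0.0534) and 0.09 (SE 0.0481). Grin2a was at 0.07 in RNA and 0.05 in RPFs, Grin2b at 0.02 and -0.05, Gria3 at 0.08 and 0.11, Gria4 at -0.04 and 0.06, and Grin3a at 0.04 and -0.03. The 95% intervals of all 10 genes lay within a change of 25% either way in RNA, those of 8 did in RPFs and those of 7 did in TE. The widest were those of Grin2c and Grin2d, whose RPF intervals ran from -28.3% to 23.3% and from -11.3% to 40.4%.

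Grin1 had the smallest p of the 10 in RNA in this comparison. Its RNA was 848, 872 and 859 CPM in WT vehicle and 981, 863 and 945 in Tsc2+/- vehicle. The groups overlapped, since the second Tsc2+/- library lay among the WT libraries. The log2 fold change was 0.11 (SE 0.0479, unadjusted p 0.0261, adjusted p 0.983), and it was positive for 2 of 3 replicate numbers. Its RPFs were at 0.05 (SE 0.0476, adjusted p 0.886).

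In DHPG the comparison of genotypes again gave 0 calls among the 10 genes in RNA, RPFs and TE (over all genes 0.0482%, 0.0155% and 0%), with 2, 0 and 1 of 10 at an unadjusted p under 0.05 (over all genes 4.64%, 4.13% and 3.03%) and 0 by DESeq2. Grin2d, a GluN2 gene of low level, had the smallest p. Its RNA was 20.3, 19.1 and 17.3 CPM in WT DHPG and 16.8, 15.6 and 13.3 in Tsc2+/- DHPG, without overlap. The log2 fold change was -0.32 (SE 0.114, unadjusted p 0.00834, adjusted p 0.852). Its RPFs were 13.98, 14.2 and 10.1 CPM in WT DHPG and 15.9, 15.3 and 10.9 in Tsc2+/- DHPG, with overlap and a log2 fold change of 0.14 (SE 0.159). For TE this gave 0.46 (SE 0.192, unadjusted p 0.0224, adjusted p 0.9997) and it was positive for each of the 3 replicate numbers. In vehicle, Grin2d RNA was 16.5, 18.4 and 13.4 CPM in WT and 18.8, 13.6 and 13.4 in Tsc2+/-, which overlapped (log2 fold change -0.09, SE 0.115). The difference between both treatments was -0.23 for Grin2d RNA (SE 0.162, adjusted p 0.999).

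Gria4, the least abundant AMPA receptor subunit, was the other gene with an unadjusted p under 0.05 in RNA. Its RNA was 57.6, 57.6 and 58.1 CPM in WT DHPG and 65.9, 62.2 and 64.7 in Tsc2+/- DHPG, without overlap (log2 fold change 0.15, SE 0.0708, unadjusted p 0.0358, adjusted p 0.997). Its RPFs were at -0.01 (SE 0.0824). Grin3a was at 0.14 in RNA (SE 0.0878) and 0.16 in RPFs (SE 0.0872).

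Averaged over both treatments, genotype again gave 0 calls among the 10 genes in each assay (over all genes 0.227% in RNA, 0.0621% in RPFs and 0% in TE, with 2, 2 and 1 of 10 at an unadjusted p under 0.05, beside 6.12%, 6.63% and 4.5% of all genes, and 0 by DESeq2). The RPFs of the AMPA receptor genes Gria3 and Gria2 were at 0.11 (SE 0.0402, unadjusted p 0.0125, adjusted p 0.632) and 0.09 (SE 0.0340, unadjusted p 0.0149, adjusted p 0.659), with intervals from 1.72% to 13.96% and from 1.28% to 11.5%. Gria3 RPFs were 407, 446 and 487 CPM in WT vehicle, 496, 483 and 463 in Tsc2+/- vehicle, 455, 461 and 486 in WT DHPG and 509, 486 and 510 in Tsc2+/- DHPG. The vehicle groups overlapped, and in DHPG every Tsc2+/- library was at or above the highest WT library. None of these differences passed the threshold.

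**Figure D5:**
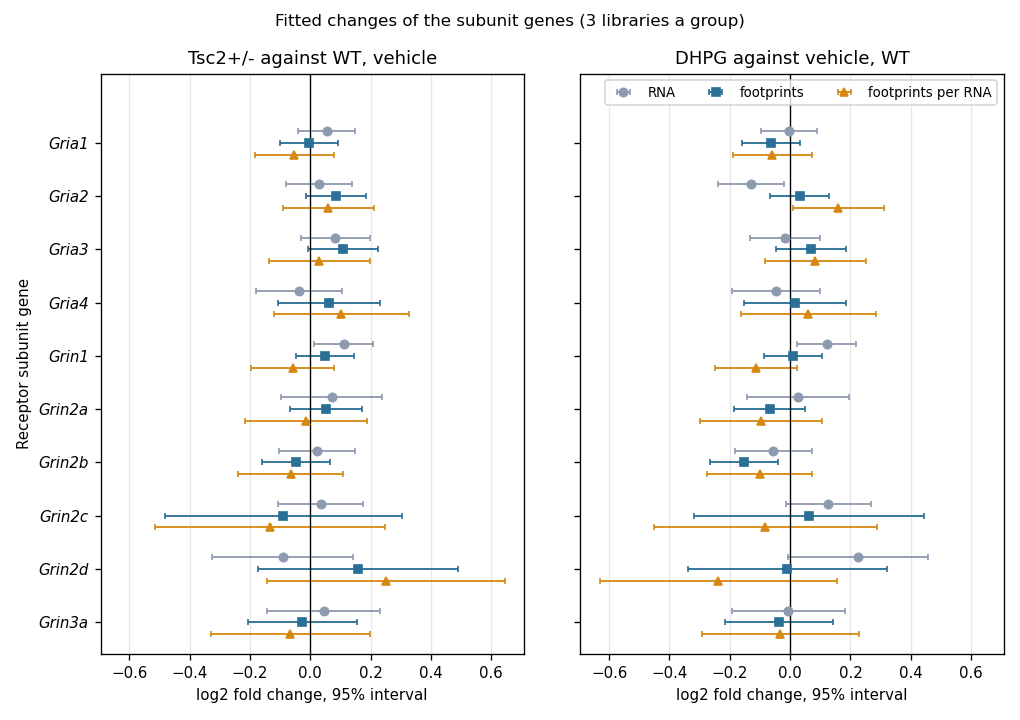
Fitted log2 fold changes of the 10 subunit genes with 95% intervals, for Tsc2+/- against WT in vehicle (left) and for DHPG against vehicle in WT (right), in RNA, footprints and footprints per RNA. Estimates run from -0.24 to 0.25, both for Grin2d in footprints per RNA, intervals are widest for Grin2c and Grin2d, and none was called.

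What the agonist changed was asked by setting slices that had received DHPG for 5 min against vehicle. In WT, 0 of the 10 genes were called in RNA, RPFs or TE (over all genes 0%, 0.0311% and 0.0548%), by edgeR and by DESeq2. At an unadjusted p under 0.05 the counts were 2, 1 and 1 of 10, where 6.45%, 6.71% and 9.06% of all genes passed. The log2 fold changes ran from -0.13 to 0.23 in RNA and from -0.15 to 0.07 in RPFs. Intervals lay within a change of 25% for 9 of 10 genes in RNA, 9 in RPFs and 8 in TE.

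Grin2b had the smallest p in RPFs. Its footprints were 434, 429 and 450 CPM in WT vehicle and 396, 387 and 397 in WT DHPG, so each DHPG library was below each vehicle library. The log2 fold change was -0.15 (SE 0.0553, unadjusted p 0.00875, adjusted p 0.596), an interval from -16.9% to -2.86%. In Tsc2+/- its footprints were 462, 406 and 404 CPM in vehicle and 430, 374 and 404 in DHPG, with overlap, and the fitted change was -0.07 on the log2 scale (SE 0.0554, adjusted p 0.9999). The interaction was 0.08 (SE 0.0783, adjusted p 0.998). Grin2b RNA was at -0.06 in WT (SE 0.0626) and at -0.04 in Tsc2+/- (SE 0.0619).

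Gria2 and Grin1 were the genes with the smallest p in RNA. Gria2 RNA was 550, 485 and 451 CPM in WT vehicle and 481, 477 and 399 in WT DHPG, which overlapped (log2 fold change -0.13, SE 0.0535, unadjusted p 0.0208, adjusted p 0.726). All 3 same-numbered contrasts were negative. Its RPFs were 1401, 1598 and 1654 CPM in vehicle and 1553, 1589 and 1608 in DHPG, also overlapping, and TE was at 0.16 (SE 0.0749, unadjusted p 0.0389, adjusted p 0.523). Grin1 RNA was 848, 872 and 859 CPM in vehicle and 983, 913 and 912 in DHPG without overlap, a log2 fold change of 0.12 (SE 0.0480, unadjusted p 0.0158, adjusted p 0.725), and its RPFs were at 0.01 (SE 0.0476). In Tsc2+/- the Grin1 RNA estimate for DHPG was -0.03 (SE 0.0479), and the interaction of -0.15 (SE 0.0678, unadjusted p 0.0362) had an adjusted p of 0.999.

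In Tsc2+/- slices, DHPG gave 0 calls among the 10 genes in the 3 assays, where 0% of all genes were called, with 1, 1 and 0 of 10 at an unadjusted p under 0.05 (4.32%, 4.03% and 3.65% of all genes). Averaged over both genotypes it also gave 0 (over all genes 0.0207% in RNA, 0.0311% in RPFs and 0.0469% in TE), with 1, 2 and 1 at an unadjusted p under 0.05 (7.49%, 6.82% and 8.5% of all genes). The interaction of genotype and DHPG gave 0 in each assay against 0% of all genes, with 1, 0 and 0 at an unadjusted p under 0.05 (3.47%, 3.81% and 4.06% of all genes). DESeq2 called 0 of 10 in each of these. Gria4 RNA in Tsc2+/- was 54.2, 60.8 and 59.3 CPM in vehicle and 65.9, 62.2 and 64.7 in DHPG, without overlap (log2 fold change 0.14, SE 0.0701, unadjusted p 0.0464, adjusted p 0.9998), and its RPFs were at -0.06 (SE 0.0831). Grin2a RPFs in Tsc2+/- were 408, 308 and 369 CPM in vehicle and 343, 305 and 339 in DHPG, with overlap and a log2 fold change of -0.13 (SE 0.0583, unadjusted p 0.0282, adjusted p 0.9999). Grin2a and Grin2b RPFs averaged over genotypes were at -0.10 (SE 0.0412, adjusted p 0.633) and -0.11 (SE 0.0392, adjusted p 0.549).

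In all, 20 of the 210 tests of the subunit genes (9.52%) had an unadjusted p under 0.05, in 21 comparisons that share libraries, and the smallest adjusted p was 0.498, for Gria2 in TE under DHPG averaged over genotypes. The share of all genes with an unadjusted p under 0.05 was between 3.03% and 9.06% in these comparisons. Groups without overlap were pointed out for genes picked by their p, which makes such separation likely. How many of all genes separate in this way was not tested.

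Genes that act with these receptors were described from lists drawn up by name. Of 18 genes for auxiliary subunits and assembly factors of AMPA receptors, 0 were called in vehicle between genotypes in any assay. Over all genes, 0.0896% were called there in RNA, 0.0233% in RPFs and 0% in TE. In RNA, 1 of the 18 was called in the average over treatments, where 0.145% of all genes were called higher. This was Cacng5, whose RNA, for an auxiliary subunit of the TARP family, was higher in Tsc2+/- (log2 fold change 0.39, SE 0.0830, adjusted p 0.0255, 3 of 3 same-numbered contrasts). Cacng5 RPFs were at 0.18 (SE 0.132, adjusted p 0.853). The call was lost in 6 of 21 alternatives. These were the fit without the replicate block and those without replicate number 1 or 3. The others left out the third library of Tsc2+/- vehicle, of Tsc2+/- DHPG or of WT DHPG. Over the alternatives, estimates lay between 0.25 and 0.49, with adjusted p up to 0.720. The median of the list was 0.06 in RNA in vehicle, beside -0.00 over all genes, and Shisa7, another auxiliary subunit, was at 0.18 (SE 0.0482, adjusted p 0.346). Of 19 genes for trafficking and anchoring, 0 were called in any comparison, where at most 0.227% of all genes were called. In vehicle, Lrrtm1 had 0.19 in RNA (SE 0.0621, adjusted p 0.785) and Lrrtm2 0.28 in RPFs (SE 0.0858, adjusted p 0.536), both synaptic adhesion proteins.

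Of the 7 tested genes among 8 for other ionotropic glutamate receptor subunits, 0 were called in any comparison. The share of all genes called was at most 0.227%. Under DHPG in WT, the RNA of Grik5, a kainate receptor subunit, was at 0.11 (SE 0.0536, adjusted p 0.768). Grm5, a receptor on which DHPG acts, was at 0.00 in RNA between genotypes in vehicle (SE 0.0565) and was not called in any comparison. Of the cell type markers, 1 was called: Prox1, a marker of dentate granule cells, had lower RNA in Tsc2+/- averaged over treatments, where 0.0827% of all genes were called lower (log2 fold change -0.41, SE 0.0852, adjusted p 0.0161), the comparison in which Cacng5 was called. Its call too was lost in 6 of 21 alternatives (adjusted p up to 0.187). These were the fit without the replicate block and those without replicate number 1, 2 or 3. The call was also lost without the first WT vehicle library or the third WT DHPG library. The summed RNA of the 5 dentate markers was 39.0 to 48.0 CPM in Tsc2+/- vehicle, 48.5 to 52.6 in WT DHPG and 28.4 to 37.9 in Tsc2+/- DHPG. Its part in the result for Cacng5 was not tested.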

How the data were processed

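The deposited values were expected counts per gene, whole numbers that the authors had obtained with RSEM after trimming with cutadapt, removal of reads that matched rRNA and tRNA with Bowtie2, alignment to mm10 with TopHat2, selection of uniquely mapped reads and removal of duplicates by molecular identifiers. RNA had been counted over transcripts and RPFs over coding sequence without its first and last 30 nt. For the average translational efficiency that the study took from 3 WT vehicle samples, RNA was counted over coding sequence. Changes in translational efficiency were calculated by the study with anota2seq. Libraries were grouped by their labels, 3 per group and assay.

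Genes were filtered with filterByExpr (minimum count 10), which left 14516 genes for RNA, 12877 for RPFs and 12785 for TE. The counts of 12 libraries per assay were fitted with edgeR 4.0.16 (R 4.3.3; TMM, robust quasi-likelihood F test) with group and replicate number as terms, because the study had corrected for batch. TE was the interaction of assay and group over 24 libraries, with replicate number within assay as a term. This fit did not pair the RNA and RPF libraries of a lysate, and a block by lysate was an alternative. Benjamini-Hochberg adjustment ran over all genes and a call was an adjusted p under 0.1. Comparisons with a common group share its libraries. Each library pooled slices of several mice, and p-values measure the spread between such libraries. DESeq2 1.42.0, ComBat (sva 3.50.0), other scaling and filters, halved RPF counts and left-out libraries were alternatives. The fitting was tested on simulated data. Depth, 14801679 to 24067838 RNA and 5296006 to 13613673 RPF counts per library, limits Grin2c and Grin2d most.

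Leader, coding and transcript lengths and sequences came from RefSeq (GRCm38.p6), for the transcript with the longest coding sequence. Lengths were matched for 95.2% of the genes tested in both assays. The members and lists were chosen with earlier results of these data known. All 10 members were tested in every comparison, and the text gives those with the smallest p and others as examples, a narrower choice than the planned naming of all 10 that was made after their values were seen. Of the lists, genes called in a comparison are named, or else up to 2 genes with the smallest p. Some genes of the lists are not reported here.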

Additional observations from a re-analysis of the deposited data

How the results depend on the processing

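None of the 10 subunit genes was called in any of 551 counts over the alternatives (edgeR and DESeq2). The threshold was an adjusted p under 0.1, except in an alternative that set 0.05 on the main fit. The 0 calls and unchanged signs of that alternative were fixed by the main fit, and it holds 210 of the single values counted next. Of 5510 single values, 453 changed sign, 435 of them among the 3990 that left out a replicate number or a library. The smallest adjusted p was 0.108 there and 0.229 over the other alternatives. Without the replicate block the count was 0 in every comparison (smallest adjusted p 0.799), and with the replicate block by lysate it was 0 as well (smallest adjusted p 0.548). Same-numbered libraries had deviations correlated by 0.0228 to 0.143 in RNA and 0.0330 to 0.263 in RPFs, all of them positive. Other pairs were correlated by -0.126 to 0.0240 and -0.194 to 0.0667, so the ranges overlapped only in part. What a replicate number marks is not given by the labels. Over all genes, calls for TE under DHPG in WT numbered 7 in edgeR, 1 without the replicate block, 23 with halved RPF counts and 99 in DESeq2.

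With CPM in place of levels per length, an alternative chosen after seeing the data, the percentile of footprints per RNA in WT vehicle was 93.4 for Gria2, 67.7 for Grin1, 82.0 for Grin2a, 93.4 for Grin2b, 2.17 for Grin2c and 37.2 for Grin2d. Over the curated RefSeq transcripts, the shortest leader was 250 nt for Gria1, with 2 upstream starts, 167 nt for Gria3 and 631 nt for Grin2b, with 8 upstream starts. Low RPF counts limit Grin2c and Grin2d. Which transcripts these slices used was not tested.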
